A study of Mus musculus with 4 samples.

Results

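A set of 10 genes of lipid uptake, oxysterol synthesis, cholesterol efflux and lipid storage were followed in microglia, the macrophages that reside in brain tissue, from a mouse model of Alzheimer's disease. They were Lpl, Ch25h, Apoe, Apoc1, Abca1, Abcg1, Soat1, Plin2, Fabp5 and Nr1h3, chosen by name, and all 10 were found among the 49993 genes with a count. Each passed the filter on low counts that left 21439 genes for testing. The choice was made with the difference between these libraries already known, so that every difference given for the 10 genes is a description and carries no test.

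The cells were CD11b+ microglia from whole brain at 10 months of age, sorted with magnetic beads, and the libraries were stranded and depleted of ribosomal RNA. Of the 4 libraries, 2 were labelled APP/PS1+ asrij+/+ (AD) and 2 were labelled APP/PS1+ asrij-/- (AD/KO). Asrij is the product of Ociad1, and its deletion was constitutive, so that it was absent by design from every cell type and not from microglia alone. APP/PS1 denotes transgenes that drive amyloid deposition. The AD/KO animals and the AD animals both carry them, and no group without the transgenes was included here. The labels do not say which promoter drives the transgenes, whether animals were pooled, or whether the libraries of a group came from separate animals. The spread between libraries may therefore be technical in part.

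Lipids reach microglia as lipoproteins, myelin debris and dying cells. Lipoprotein lipase frees fatty acids from lipoproteins, fatty acid binding proteins carry them, and surplus cholesterol and fatty acids are esterified and stored in droplets coated by perilipins. Cholesterol leaves the cell through the ABC transporters onto apolipoprotein E, under the control of the liver X receptors, nuclear receptors that are switched on by oxysterols. In mouse models of amyloid deposition, Lpl, Ch25h and Apoe are known as genes that are raised in microglia around plaques.

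The libraries held from 13102622 to 19810076 counts. Ociad1 was at 50.2 and 63.4 CPM (counts scaled to library size, with TMM factors) in AD and at 38.9 and 32.1 CPM in AD/KO. The transcript was thus lower but not lost, and AD and AD/KO stand throughout for the libraries as labelled. Microglial identity genes were abundant in every library, with Csf1r, the receptor for colony-stimulating factor 1, between 1684 and 5529 CPM. The summed level of 19 homeostatic microglia markers was 25687 and 18001 CPM in AD, and 26983 and 8888 CPM in AD/KO, so that AD/KO replicate 2 stood apart. The 12 astrocyte markers summed to 1980 and 4714 CPM in AD and to 4927 and 12561 CPM in AD/KO, higher in both AD/KO libraries. The 10 oligodendrocyte markers summed to 1660 and 2671 CPM in AD and to 3949 and 8613 CPM in AD/KO, in the same order of libraries. Of these 10, 7 had estimates higher in AD/KO and 3 lower. AD replicate 2 differed from the rest in its neutrophil markers, with a sum of 4552 CPM against 336 CPM in the other AD library and 468 and 529 CPM in AD/KO. It alone had many reads of Xist, the RNA that coats an inactive X chromosome (1391 reads, against 6, 15 and 3). The 2 AD libraries thus did not hold RNA of the same animals alone. The part of sex in the differences between the groups was not tested.

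RefSeq promoter windows (GRCm38.p6) were matched to 6 of the 10 genes (Ch25h, Apoe, Abca1, Soat1, Plin2 and Nr1h3). The 250 bases before the annotated start were searched on both strands for a strict liver X receptor element (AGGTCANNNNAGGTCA) and for a loosened form of it (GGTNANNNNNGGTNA). They were also searched for a STAT motif (TTCNNNGAA), a PU.1 core (GAGGAAGT), a C/EBP motif (TTGCNNAA), an AP-1 motif (TGANTCA), an E-box (CACGTG) and a TATA motif (TATAAA). The start is that of the RefSeq transcript in the table, which for Abca1 lies inside the outer bound of the gene. The windows of Abca1, the textbook target of the liver X receptors, and of Ch25h, the gene with the largest difference of the 10, are printed 5′ to 3′ on the strand of the gene, with matches to these motifs in capitals. In the Abca1 window the capitals mark the E-box, the loosened receptor element on the other strand and the TATA motif. In the Ch25h window they mark the TATA motif and the C/EBP motif, the latter on the other strand.
Abca1, chr4:53159896-53160145, minus strand: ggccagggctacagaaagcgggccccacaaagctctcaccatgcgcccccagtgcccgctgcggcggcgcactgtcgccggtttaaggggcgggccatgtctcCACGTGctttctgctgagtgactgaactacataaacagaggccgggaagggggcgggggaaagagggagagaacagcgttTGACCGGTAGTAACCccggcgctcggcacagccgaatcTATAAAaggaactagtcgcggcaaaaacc
Ch25h, chr19:34475149-34475398, minus strand: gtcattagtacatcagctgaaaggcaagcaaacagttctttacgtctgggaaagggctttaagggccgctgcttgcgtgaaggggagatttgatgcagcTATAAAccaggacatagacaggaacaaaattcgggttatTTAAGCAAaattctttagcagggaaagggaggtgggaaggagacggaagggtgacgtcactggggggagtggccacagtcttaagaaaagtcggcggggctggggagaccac
The strict element was in 0.0152% of 32851 promoter windows of this length and in none of those of the 6 genes. The loosened element was in 0.621% of windows, and of the 6 genes only Abca1 held it, from 67 to 53 bases before the start. The C/EBP motif was in 9.56% of windows and the TATA motif in 12.4%, the latter also in a window of Apoe, and the E-box was in 6.02%. The STAT motif (7.02% of windows), the PU.1 core (2.44%) and the AP-1 motif (6.75%) were not in the windows of the 6 genes. These matches describe letters in a window and not sites in use.

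Lipoprotein lipase and cholesterol 25-hydroxylase had the largest differences between the groups of the 10 genes. Lpl (gene ID 16956, chromosome 8, 68880555 to 68906932, protein-coding) encodes the lipase that hydrolyses the triglycerides of lipoproteins. Its reads numbered 1155 and 1314 in AD but 240 and 144 in AD/KO, or 83.8 and 80.8 CPM against 12.5 and 7.81 CPM. Both AD libraries were high and close to each other, both AD/KO libraries were low, and the groups lay far apart. The AD mean was 82.3 CPM (SD 2.17, n = 2) and the AD/KO mean 10.2 CPM (SD 3.32, n = 2), 8.10-fold lower, and the fitted log2 fold change was −3.02 (SE 0.36). Of all genes tested, 0.275% had an estimate at least as low as that of Lpl.

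Ch25h (gene ID 12642, chromosome 19, 34473783 to 34475148, protein-coding) encodes the enzyme that makes 25-hydroxycholesterol, an oxysterol. It had 128 and 104 reads in AD against 8 and 3 reads in AD/KO. On the CPM scale the level was 9.29 and 6.39 in AD and 0.417 and 0.163 in AD/KO, where the AD/KO replicate 2 value rests on 3 reads. The groups did not overlap. AD averaged 7.84 CPM (SD 2.05, n = 2) and AD/KO 0.290 CPM (SD 0.180, n = 2), and the fitted log2 fold change was −4.72 (SE 0.71). Over the reads pooled by group the level in AD was 26.4-fold that in AD/KO, with a 95% exact (Clopper-Pearson) interval of 14.5 to 53.6 that covers counting error only. A non-coding gene on the other strand, Gm26902, shares 159 bases with the Ch25h transcript and was not analysed here, and whether strand was used in the counting is not given in the sources used here.

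**Figure D1:**
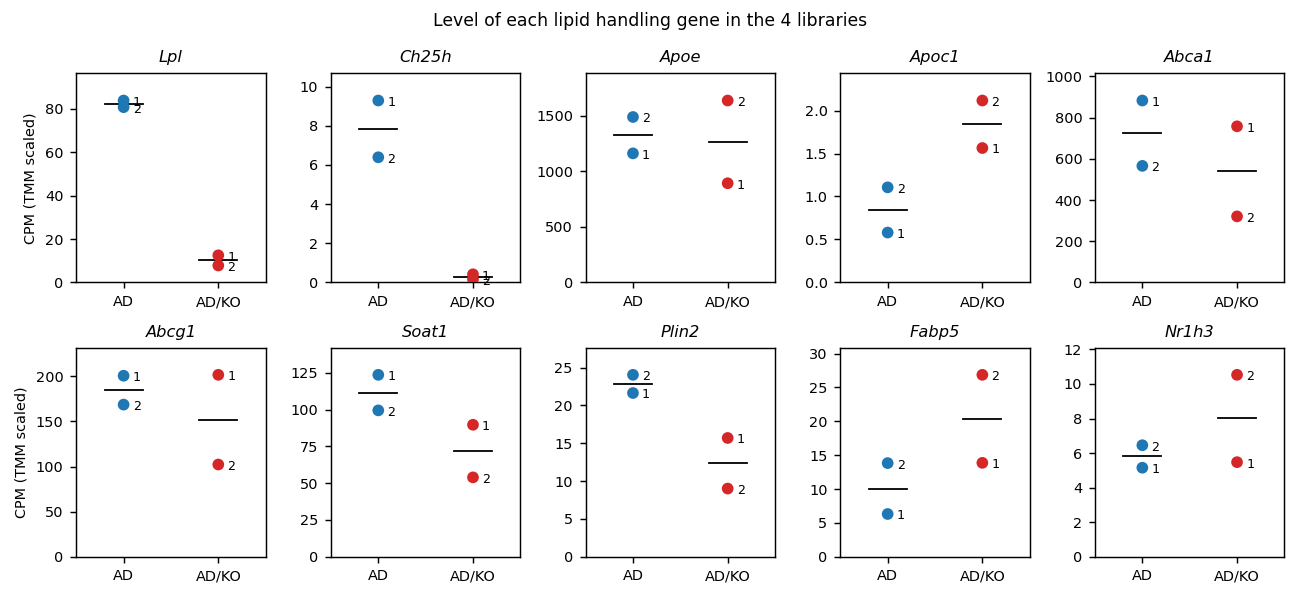
Level of each of the 10 genes in CPM after TMM scaling (vertical axis, from 0 in each panel) in the AD and AD/KO libraries. Points are libraries with their replicate number and lines are the means of 2. Lpl lies at 80.8 and 83.8 CPM in AD and at 7.81 and 12.5 CPM in AD/KO, and Apoe, Abca1, Abcg1 and Nr1h3 overlap between the groups.

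Among markers of other myeloid cells, those of border-associated macrophages and monocytes were also lower in AD/KO when summed, by smaller amounts. Neutrophil markers overlapped between the groups, with sums of 336 and 4552 CPM in AD and 468 and 529 CPM in AD/KO. The 8 markers of border-associated macrophages summed to 135 and 103 CPM in AD and to 71.0 and 60.4 CPM in AD/KO, and 6 of the 8 were lower in both AD/KO libraries, where 21.7% of all genes tested were, with none at 0 in any library. The 6 monocyte markers summed to 102 and 459 CPM in AD and to 53.3 and 85.3 CPM in AD/KO, with 4 lower in both and none at 0. The part of these cells in the difference of Lpl and Ch25h was not tested. In bulk RNA, fewer cells of a type and less RNA per cell cannot be told apart.

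The efflux transporters overlapped between the groups. Abca1 (gene ID 11303, chromosome 4, 53030789 to 53159988, protein-coding), which loads cholesterol onto lipid-poor apolipoproteins, was at 883 and 566 CPM in AD and at 758 and 321 CPM in AD/KO. The AD/KO replicate 1 library lay between the AD libraries and AD/KO replicate 2 below both. Its log2 fold change was −0.43 (SE 0.60), and it was −1.12 without AD/KO replicate 1 and 0.076 without AD/KO replicate 2. Abcg1 (gene ID 11307, chromosome 17, 31057694 to 31117984, protein-coding), which passes cholesterol on to larger particles, was at 201 and 169 CPM in AD and at 202 and 102 CPM in AD/KO. Here too only AD/KO replicate 2 was low, and the log2 fold change was −0.28 (SE 0.44), or 0.14 without that library and −0.80 without AD/KO replicate 1.

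Apoe and Apoc1, neighbours on chromosome 7, encode apolipoproteins that carry lipids between cells and modify particle remodelling. Apoe (gene ID 11816, chromosome 7, 19696244 to 19701310, protein-coding) had from 15997 to 30156 reads per library. Its level was 1161 and 1488 CPM in AD and 892 and 1636 CPM in AD/KO, so that both AD libraries lay inside the range of the AD/KO libraries. AD averaged 1325 CPM (SD 231, n = 2) and AD/KO 1264 CPM (SD 526, n = 2). The log2 fold change of −0.067 (SE 0.59) was −0.25 and 0.18 without AD replicates 1 and 2, and 0.36 and −0.56 without AD/KO replicates 1 and 2, so that its sign turned on which library was left out. Apoc1 (gene ID 11812, chromosome 7, 19689480 to 19692659, protein-coding) was close to the limit of detection, with 8 and 18 reads in AD and 30 and 39 reads in AD/KO. It stood at 0.581 and 1.11 CPM in AD and at 1.56 and 2.12 CPM in AD/KO, higher in both AD/KO libraries, with a log2 fold change of 1.11 (SE 0.66), or 0.72 and 1.71 without AD replicates 1 and 2.

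The 2 members of cholesterol esterification and droplet storage, Soat1 and Plin2, were lower in both AD/KO libraries by a small margin. Soat1 (gene ID 20652, chromosome 1, 156428108 to 156474328, protein-coding), the acyltransferase that makes cholesteryl esters, was at 124 and 99.5 CPM in AD and at 89.7 and 53.9 CPM in AD/KO. Its log2 fold change was −0.64 (SE 0.37). Plin2 (gene ID 11520, chromosome 4, 86626910 to 86670217, protein-coding), a coat protein of lipid droplets, was at 21.6 and 24.0 CPM in AD and at 15.7 and 9.01 CPM in AD/KO. The log2 fold change of Plin2 was −0.89 (SE 0.40). The longest Soat1 transcript shares stretches of 129 to 142 bases on the other strand with Brca2, Med16, Tmc4, 1700008O03Rik and Gm37139, so that reads there are uncertain. In both genes AD/KO replicate 2 was the lowest library, and without AD/KO replicate 2 the values were −0.30 for Soat1 and −0.53 for Plin2. Without AD/KO replicate 1 they were −0.995 and −1.29.

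The fatty acid binding protein and the receptor went the other way or did not separate. Fabp5 (gene ID 16592, chromosome 3, 10012585 to 10016610, protein-coding), a carrier of fatty acids in the cytoplasm, was at 6.31 and 13.83 CPM in AD and at 13.87 and 26.9 CPM in AD/KO. AD replicate 2 and AD/KO replicate 1 were thus level with each other, and the log2 fold change was 1.01 (SE 0.56). Without AD replicate 1 it was 0.54, without AD replicate 2 it was 1.75, and without AD/KO replicates 1 and 2 it was 1.47 and 0.47. Reads of Fabp5 may be shared with its pseudogenes Gm6166 (98.3% identical over 409 bases, 0 to 9 reads) and Gm14328 (97.3% over 408 bases, 0 to 1 reads). A longer Fabp5 transcript also matches Gm13998 (96% over 175 bases), which had 21 and 18 reads in AD and 14 and 1 reads in AD/KO, beside 87 Fabp5 reads in AD replicate 1. The counts of Fabp5 are uncertain for these reasons. Nr1h3 (gene ID 22259, chromosome 2, 91184061 to 91202829, protein-coding), which encodes liver X receptor alpha, was at 5.15 and 6.45 CPM in AD and at 5.47 and 10.5 CPM in AD/KO. Only AD/KO replicate 2 was high, and the log2 fold change of 0.46 (SE 0.50) was −0.074 without that library and 0.91 without AD/KO replicate 1.

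Across the 10 genes, 4 had both AD/KO libraries below both AD libraries (Lpl, Ch25h, Soat1 and Plin2) and 2 were higher (Fabp5 and Apoc1). Over all 21439 genes tested the groups did not overlap in 42%, with AD/KO lower in 21.7% and higher in 20.3%. The members were chosen on this comparison, so nothing is read from their count. In the edgeR quasi-likelihood fit 0 members passed an adjusted p of 0.05, as did 0 genes in the table (0%). An unadjusted p of 0.05 was passed by 2 members (Lpl and Ch25h), beside 5% of all genes tested (1072). By DESeq2 the same 2 members passed, beside 0.465% of all genes with an adjusted p. As the members were chosen on this comparison, nothing is read from these passes either. The median log2 fold change of the 10 was −0.35, against −0.048 over all genes tested.

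Levels were next compared between genes after division by the exon length of each gene, which counts every base in any annotated transcript. The order of the genes depends on this choice. The length was 3567 bases for Fabp5 and 3512 for Plin2, though transcripts of 987 and 1888 bases are annotated for them. In AD, Apoe was at 620 CPM per kilobase, Abca1 at 69.9, Abcg1 at 25.3 and Soat1 at 11.4, followed by Lpl at 7.85, Plin2 at 6.50 and Ch25h at 5.65. Fabp5 at 2.82, Nr1h3 at 2.31 and Apoc1 at 1.13 CPM per kilobase were the lowest. Neighbours in this order overlapped between libraries for Plin2 with Ch25h and for Fabp5 with Nr1h3, and for no other pair of neighbours. In AD/KO the order of the top 4 was the same, with Apoe at 591 and Soat1 at 7.33 CPM per kilobase. Lpl was now at 0.970 and Ch25h at 0.209 CPM per kilobase, below all the other genes of the set in both libraries. Fabp5 was at 5.71, Plin2 at 3.52, Nr1h3 at 3.18 and Apoc1 at 2.47 CPM per kilobase in AD/KO, and from Soat1 down to Apoc1 each gene overlapped with the next.

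**Figure D2:**
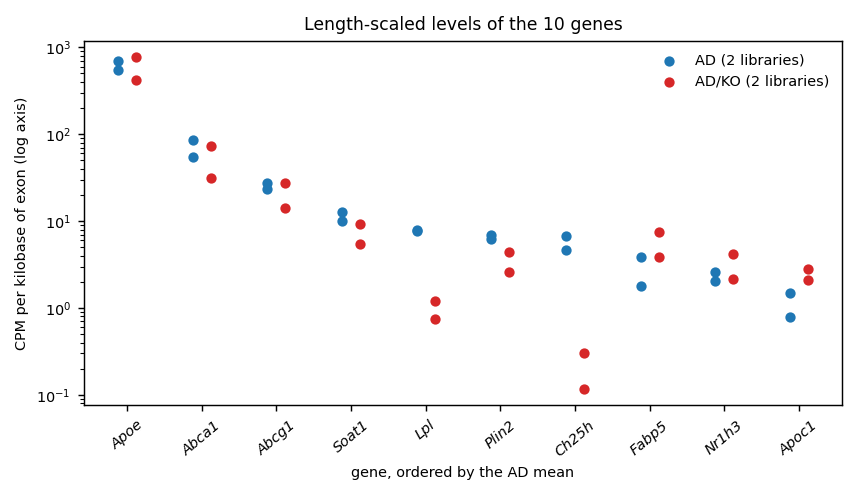
Length-scaled level of the 10 genes in CPM per kilobase of exon (vertical axis, log scale), with AD libraries in blue and AD/KO libraries in red, 2 points a group. Lpl goes from a mean of 7.85 in AD to 0.970 in AD/KO and Ch25h from 5.65 to 0.209, while Apoe stays at 620 and 591.

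The libraries differ in how much RNA of other brain cells they hold, so the genes were set beside a microglial transcript within the same library, which needs no scaling between libraries. Per 1000 reads of Csf1r, Lpl had 15.8 and 25.4 reads in AD and 2.26 and 4.64 reads in AD/KO. Ch25h had 1.75 and 2.01 reads per 1000 of Csf1r in AD and 0.0754 and 0.0967 in AD/KO. Both genes kept the groups apart on this measure, and the other 8 genes overlapped. The share of all genes without overlap on this measure was not computed, so nothing is read from that count. Abca1 had 166 and 178 reads per 1000 of Csf1r in AD and 137 and 191 in AD/KO. For Soat1 the values were 23.3 and 31.2 against 16.2 and 32.0, and for Plin2 they were 4.07 and 7.55 against 2.84 and 5.35, so that neither was lower in both AD/KO libraries relative to Csf1r.

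With Abca1 as the reference, a member in place of a microglial marker, the picture for the lipase and the hydroxylase was the same. Lpl had 94.9 and 143 reads per 1000 of Abca1 in AD and 16.5 and 24.4 in AD/KO. Ch25h had 10.5 and 11.3 in AD and 0.550 and 0.508 in AD/KO. Abcg1 had 227 and 298 reads per 1000 of Abca1 in AD and 266 and 319 in AD/KO, which overlapped. These reference genes were chosen after the values were seen.

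**Figure D3:**
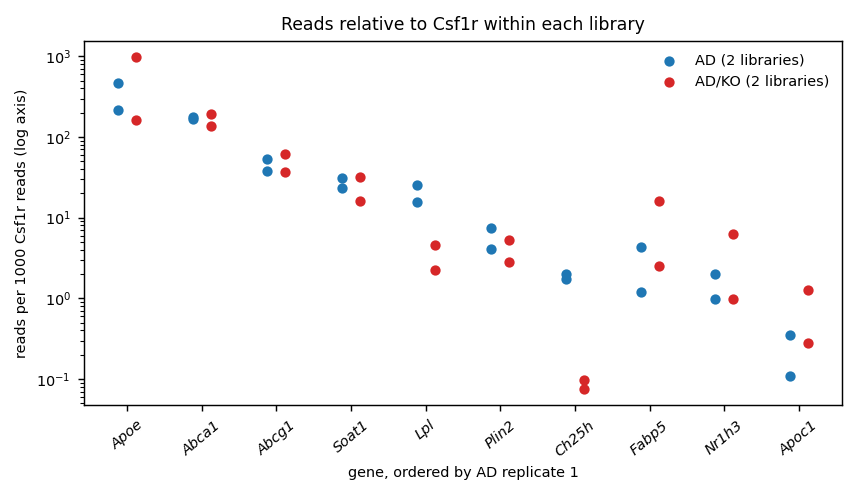
Reads of each of the 10 genes per 1000 reads of Csf1r in the same library (vertical axis, log scale), with AD libraries in blue and AD/KO libraries in red. Lpl (15.8 and 25.4 against 2.26 and 4.64) and Ch25h (1.75 and 2.01 against 0.0754 and 0.0967) do not overlap between the groups, and the other 8 genes do. The share of all genes without overlap on this measure was not computed.

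The profiles over the 4 libraries fell into 3 shapes when the log2 CPM of each gene was centred on its own mean. Lpl and Ch25h were high in both AD libraries and low in both AD/KO libraries, with a wider gap between the groups than within them. Abca1, Abcg1, Soat1 and Plin2 were lowest in AD/KO replicate 2, the library with the lowest homeostatic microglia markers. The root mean square distance of their profiles from that of the homeostatic list was 0.17 for Abca1, 0.28 for Abcg1, 0.35 for Soat1 and 0.43 for Plin2 on the log2 scale, against 1.32 to 1.49 from the astrocyte list. Fabp5, Apoc1, Nr1h3 and Apoe were highest in AD/KO replicate 2, the library with the highest astrocyte, oligodendrocyte and neuron markers. Distances from the oligodendrocyte and neuron lists were not computed. Their distance from the astrocyte list was 0.26 for Fabp5, 0.52 for Apoc1, 0.65 for Nr1h3 and 0.85 for Apoe, against 0.98 to 1.33 from the homeostatic list. For Lpl it was 1.28 from the homeostatic list and 2.36 from the astrocyte list, and for Ch25h 1.48 and 2.57. These distances describe 4 libraries and share their depth and composition, and no test was made of them.

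**Figure D4:**
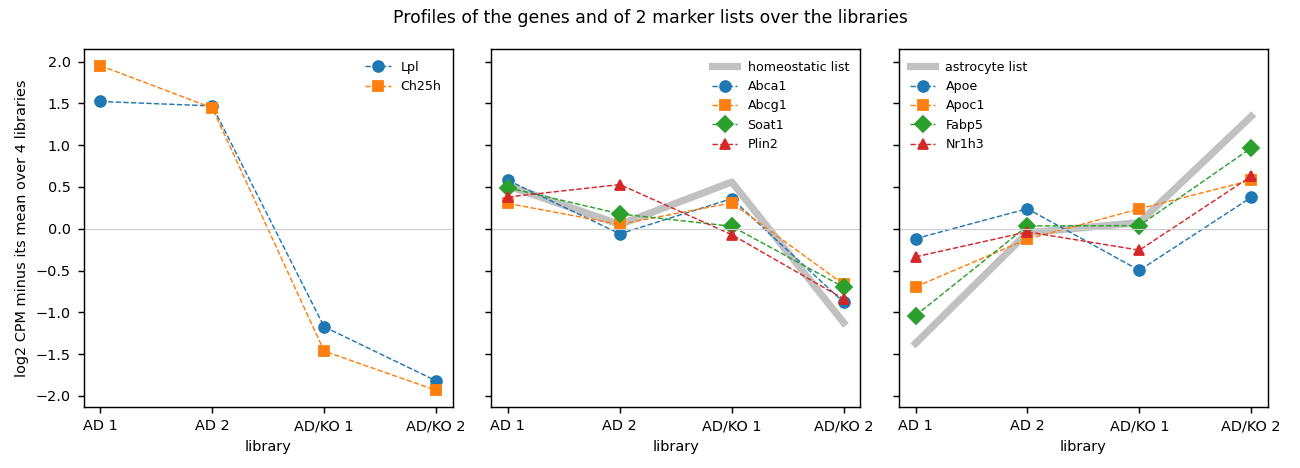
Centred log2 CPM (each gene minus its mean over the 4 libraries, vertical axis) by library, with lines joining the libraries of 1 gene, and grey bands showing the mean of the homeostatic microglia list and of the astrocyte list. Abca1 follows the homeostatic list at a distance of 0.17 and Fabp5 the astrocyte list at 0.26, while Lpl and Ch25h step down from AD to AD/KO.

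Astrocytes also express Apoe, and Aqp4, the water channel of astrocyte endfeet, was at 38.0 and 88.8 CPM in AD and at 89.8 and 204 CPM in AD/KO. Per 1000 reads of Aqp4 there were 166 and 156 reads of Fabp5 in AD and 154 and 132 in AD/KO, lower in both AD/KO libraries. Apoe had 30587 and 16757 reads per 1000 of Aqp4 in AD and 9941 and 8031 in AD/KO, also lower in both. Ratios to the rest of the 12 astrocyte markers were not computed, and with another marker the order of the libraries may differ. Gfap, for example, overlapped between the groups, at 89.2 and 323 CPM in AD and at 150 and 429 CPM in AD/KO. Nothing is therefore read from the ratios to Aqp4 alone. All 12 astrocyte markers had estimates higher in AD/KO, 11 of them without overlap (20.3% of all genes tested were higher without overlap), and none was at 0 in any library. The part of astrocyte or other brain cell RNA in the values of Apoe, Apoc1, Fabp5 and Nr1h3 was not tested.

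Scaling the libraries to the homeostatic list, which moved the median over all genes tested from −0.048 to 0.69, left Lpl at −2.42 and Ch25h at −4.31. Under it Abca1 was at 0.059, Abcg1 at 0.25, Soat1 at −0.033 and Plin2 at −0.34. Apoe was at 0.89, Nr1h3 at 1.43, Apoc1 at 1.92 and Fabp5 at 1.93. The groups then did not overlap in 2 of the 10 genes, Lpl and Ch25h. The share of all genes tested without overlap was not computed under this scaling, so nothing is read from that count. Abca1, Abcg1, Soat1 and Plin2 were all below the median of all genes under this scaling, and Apoe, Apoc1, Fabp5 and Nr1h3 above it.

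The genes whose level over the 4 libraries was most like that of 3 members were taken from the genes tested with a mean of at least 5 CPM (13768 beside Lpl or Apoe, and 13769 beside Ch25h, whose own mean is lower), by the smallest root mean square distance of centred log2 CPM. For Lpl these were Tnfsf8 (0.12), Gm35831 (0.12) and Clec7a (0.23). Tnfsf8 was at 18.4 and 15.4 CPM in AD and at 2.55 and 1.52 CPM in AD/KO, and Clec7a at 78.5 and 85.3 against 10.1 and 9.88 CPM. For Ch25h they were Gm27008 (0.16), Lpl itself (0.27) and Tnfsf8 (0.31), with Gm27008 at 15.9 and 14.6 CPM in AD and at 1.20 and 0.597 CPM in AD/KO. For Apoe they were Pcdhga3 (0.033), Sgpp2 (0.039) and Zkscan2 (0.039), each overlapping between the groups as Apoe did.

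Other genes of the same pathways were described from 6 lists of 97 genes that hold none of the 10, of which 83 were tested. Of the 83, 0 passed an adjusted p of 0.05 in the edgeR quasi-likelihood fit and 0 by DESeq2. An unadjusted p of 0.05 was passed in edgeR by 1 higher (Cyp46a1) and 2 lower (Cd36 and Soat2), where 2.7% of all genes tested were higher and 2.3% lower. The groups did not overlap in 19 higher and 13 lower genes of the 83, where 20.3% of all genes tested were higher and 21.7% lower, and the counts without overlap given for each list are to be read against those shares. For the genes of these lists given below with a log2 fold change the adjusted p was 0.680 in each case (edgeR quasi-likelihood with Benjamini-Hochberg adjustment).

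Among the partners of lipoprotein lipase and the lipid uptake genes, the median log2 fold change was −0.073 over 15 genes tested of 16, with 2 higher and 3 lower without overlap. Npc2, which binds cholesterol in the lysosome, was at 244 and 227 CPM in AD and at 196 and 112 CPM in AD/KO, with a log2 fold change of −0.61 (SE 0.40). Slc27a1, a fatty acid transport protein, was at 43.9 and 75.6 CPM against 93.4 and 194 CPM, with a log2 fold change of 1.26 (SE 0.50). Cd36, a fatty acid and lipoprotein receptor, was at 5.30 and 8.24 CPM in AD and at 2.71 and 1.79 CPM in AD/KO, with a log2 fold change of −1.59 (SE 0.54). Gpihbp1, which holds the lipase on capillary endothelium, had 0 reads in all 4 libraries.

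The apolipoprotein and particle remodelling list had a median of −0.003 over 8 genes tested of 12, with 2 higher and 2 lower without overlap. The lower genes were Apoa2 and Apob, with means below 5 CPM in both groups. Clu, which encodes apolipoprotein J, was at 93.7 and 243 CPM in AD and at 332 and 831 CPM in AD/KO, with a log2 fold change of 1.79 (SE 0.72). Lcat, the enzyme that esterifies cholesterol on particles, was at 2.40 and 5.65 CPM against 7.51 and 15.5 CPM, with a log2 fold change of 1.51 (SE 0.65). Both are also known from astrocytes, and both ran in the order of the astrocyte markers, which was also that of the oligodendrocyte markers.

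Oxysterol genes other than Ch25h had a median of −0.17 over 14 genes tested, with 2 higher and 2 lower without overlap. Cyp46a1, the neuronal enzyme that makes 24-hydroxycholesterol, was at 9.36 and 21.5 CPM in AD and at 42.5 and 104 CPM in AD/KO, with a log2 fold change of 2.25 (SE 0.64). The 13 neuron markers summed to 636 and 1972 CPM in AD and to 1628 and 4955 CPM in AD/KO, and their part in this value was not tested. Osbpl8, an oxysterol binding protein relative of the endoplasmic reticulum, was at 105 and 95.6 CPM against 74.8 and 62.2 CPM, with a log2 fold change of −0.55 (SE 0.28). Cyp27a1, which makes 27-hydroxycholesterol, was at 69.5 and 47.3 CPM in AD and at 51.5 and 28.9 CPM in AD/KO, overlapping between the groups, and so did Gpr183, a receptor for dihydroxylated oxysterols made from the product of Ch25h, at 113 and 81.3 CPM against 87.6 and 27.7 CPM.

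Partners and targets of the liver X receptors had a median of 0.18 over 17 genes tested, with 4 higher and 2 lower without overlap. Nr1h2, which encodes liver X receptor beta, was at 62.7 and 72.7 CPM in AD and at 72.1 and 82.1 CPM in AD/KO. The target Mylip, a ubiquitin ligase of the LDL receptor, was at 302 and 188 CPM against 264 and 85.7 CPM, low in AD/KO replicate 2 as Abca1 and Abcg1 were. Scd1 and Scd2, which desaturate fatty acids, had log2 fold changes of 1.37 (SE 0.63) and 1.24 (SE 0.70). Scd1 was at 103 and 210 CPM in AD and at 236 and 574 CPM in AD/KO, in the order of the astrocyte and the oligodendrocyte markers.

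In the lipid droplet list the median was 0.0082 over 18 genes tested of 22, with 4 higher and 4 lower without overlap. Soat2, the second acyltransferase for cholesterol, was at 8.71 and 7.74 CPM in AD and at 3.49 and 2.06 CPM in AD/KO, with a log2 fold change of −1.56 (SE 0.50). Mgll, the lipase for monoglycerides, was at 81.3 and 108 CPM against 140 and 214 CPM, with a log2 fold change of 0.91 (SE 0.37). Plin3, another droplet coat protein, stayed between 22.6 and 26.2 CPM in all 4 libraries, and Plin1, Cidea, Cideb and Cidec had too few reads to be tested.

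The fatty acid binding protein and PPAR list had the highest median of the 6, at 0.47 over 11 genes tested of 16, with 5 higher and 0 lower without overlap. Ppara, a nuclear receptor for fatty acids, was at 2.98 and 4.79 CPM in AD and at 6.15 and 12.8 CPM in AD/KO, with a log2 fold change of 1.28 (SE 0.57). Fabp7, the brain relative of Fabp5, was at 2.18 and 9.65 CPM in AD and at 5.89 and 25.8 CPM in AD/KO and overlapped between the groups. Genes named in these lists outside the fixed rule (Cd36, Gpihbp1, Apoa2, Apob, Cyp27a1, Gpr183, Nr1h2, Mylip, Plin3 and Fabp7) were chosen after their values were seen.

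**Figure D5:**
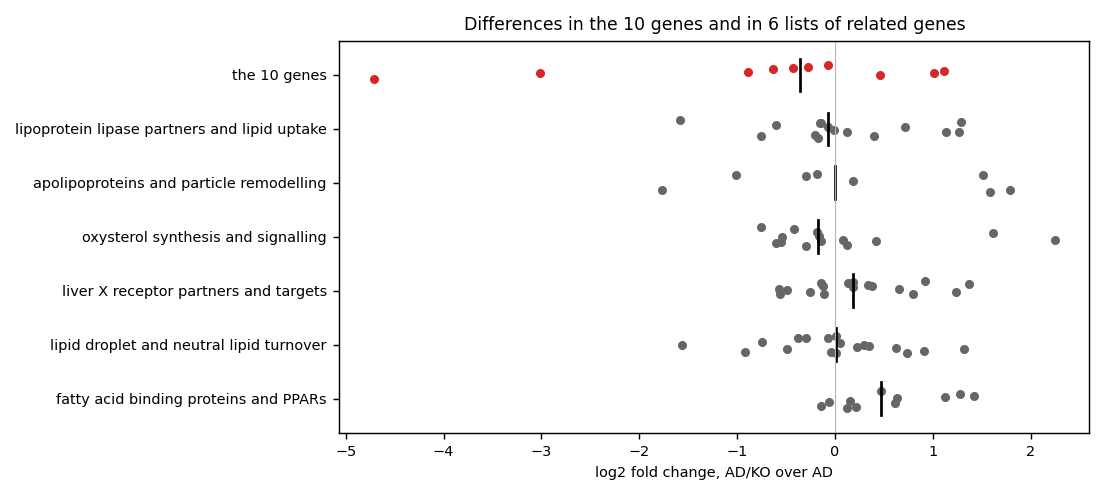
Log2 fold change of AD/KO over AD (horizontal axis) for the 10 genes (red) and for the tested genes of 6 lists (grey), 1 point a gene, with the median of each row as a black line. Ch25h (−4.72) and Lpl (−3.02) lie below every gene of the 6 lists, whose medians run from −0.17 to 0.47. The 10 genes were chosen with this comparison known, so nothing is read from their place beside the lists.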

How the data were processed

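Bulk RNA-seq of CD11b+ microglia was analysed in 4 libraries, 2 AD and 2 AD/KO. The authors deposited raw read counts as whole numbers, 1 per gene symbol. The submitters' processing notes name FastQC, HISAT2, SAMtools, featureCounts, Subread, DESeq2 1.30.0 and mm10, and the settings, use of strand and annotation are not given in the sources used here. Of the lines of each file, 11 were broken and held no count, which left 4 genes unused (Bag6, Huwe1, Mycbp2 and Neb), none of them a member, and 49993 genes were read. Totals ran from 13102622 to 19810076 counts, without molecular identifiers.

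Counts were fitted with edgeR 4.0.16 in R 4.3.3 (filterByExpr with its minimum count at 10 and minimum total at 15, trimmed mean of M values (TMM) scaling, quasi-likelihood F-test on the group term, Benjamini-Hochberg over 21439 genes, threshold 0.05). The SE is the size of the log2 fold change over the square root of F, and CPM use TMM library sizes. Likeness used log2(CPM + 0.5). Transcript similarity used BLAST 2.17.0 at 95% identity over at least 100 bases of GENCODE M21. Positions and promoters are from RefSeq for GRCm38.p6, the build called mm10, and exon lengths from GENCODE M21, also on GRCm38.

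The members and lists were chosen with earlier results of these data known. Named list genes were up to 2 per list with the lowest unadjusted p, no overlap and a mean of 5 CPM or more, since none passed the threshold, and 1 gene so chosen is not reported here. Alternatives were DESeq2 1.42.0, DESeq2 size factors, scaling to 19 homeostatic genes, 2 other filters, the replicate number as a block and each library left out. In simulated counts every gene had the same dispersion, the common value of the real fit, and libraries were drawn independently. There, 78.5% of 200 genes changed by 3 on the log2 scale were called among 20796 tested. Differences in spread between genes and the correlation of same-numbered libraries (0.68) were left out. The share called in the simulation therefore need not hold for the real fit.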

Additional observations from a re-analysis of the deposited data

How the results depend on the processing

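In the edgeR quasi-likelihood fit, 0 genes passed an adjusted p of 0.05 (1072 unadjusted). The count was 90 with DESeq2 and ran from 0 to 524 with 1 library left out, the highest without AD replicate 2 and 48 without AD replicate 1. Of the 10 members 0 passed, and 2 with DESeq2. The members were chosen on this comparison, so nothing is read from such counts of members. In the lipid pathway lists the count was 0, and from 0 to 3 with 1 library left out, again highest without AD replicate 2. The median log2 fold change of the 10 genes, −0.35, turned to 0.15 with scaling to the homeostatic list and ran from −0.90 to −0.19 with 1 library left out (−0.90 without AD/KO replicate 1). Scaling to the homeostatic list also moved the median over all genes tested, from −0.048 to 0.69, so that the median of the 10 genes stayed below it. The cause of the changes with 1 library left out was not tested. Lpl stayed between −3.34 and −2.42 and Ch25h between −5.47 and −4.20 under every alternative run. Abca1 ran from −1.12 to 0.076, Abcg1 from −0.80 to 0.25, Soat1 from −0.995 to −0.033, Plin2 from −1.29 to −0.34, Apoe from −0.56 to 0.89, Nr1h3 from −0.074 to 1.43, Fabp5 from 0.47 to 1.93 and Apoc1 from 0.72 to 1.92. The groups did not overlap in 6 of the 10 genes, where they did not in 42% of all genes tested. The count was 2 with scaling to the homeostatic list and 5 with library size alone, a scaling added after seeing the data. The shares over all genes under these other scalings were not computed, so nothing is read from those counts.

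Both groups use replicate numbers 1 and 2, with nothing in the labels on a litter or day in common. Across genes, the distances of libraries 1 (and of 2) from their group means correlated at 0.68. With the replicate block, edgeR called 4333 genes (20.2% of those tested), 21 of the pathway genes and 5 of the 10 members (Lpl, Ch25h, Soat1, Plin2 and Fabp5), against 0 members without it, and the median of the members was −0.44. Depth limits Ch25h in AD/KO (8 and 3 reads) and Apoc1 in AD (8 and 18 reads) most.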
